A study of Mus musculus with 20 samples.

Results

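Schwann precursor and satellite glia genes are described here across lumbar and sacral dorsal root ganglia (DRG) of mouse embryos at E18.5, shortly before birth. The set holds 10 of the 37620 genes listed in the expression table: Sox10, Foxd3, Fabp7, Erbb3, Sox2, S100b, Gfap, Kcnj10, Pou3f1 and Apoe. They were chosen by name, as genes of Schwann cell precursors, immature Schwann cells and satellite glia, and each was matched to its Ensembl identifier. Earlier results of these data were known when they were chosen. The study looked for transcripts of the sensory neurons that supply the pelvic organs, which lie in the sacral ganglia of the mouse. RNA of whole DRG was sequenced from C57Bl/6 embryos, 5 male and 5 female, with no other genotype and no treatment. Every embryo contributed a library of its L4-5 ganglia, called lumbar, and a library of its L6-S1 ganglia, called sacral although L6 is among them. The 20 libraries thus form 4 groups of 5, male and female at each of the levels. All cells of a ganglion were sequenced as a mix. Fewer glia, less RNA per glial cell and a change in other cells of the mix, neurons included, cannot be told apart in any result below.

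Glia of the DRG derive from the neural crest. Schwann cell precursors travel along growing nerves, become immature Schwann cells and later either myelinate large axons or wrap groups of small ones, while satellite glia enclose the cell bodies of the sensory neurons. The lineage is set by the transcription factor Sox10 and is kept alive by neuregulin-1 from axons, which is sensed by a receptor that contains Erbb3.

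Expression is given as log2 RPKM, the log2 of reads divided by gene length and by library size, a scale on which genes of unequal length can be compared. The libraries held between 19403023 and 39257771 recovered reads, of which 18.1% to 61.4% came from the genes of mitochondrial ribosomal RNA (rRNA). The lumbar library of donor M5 had the highest share, and donors M5 and F7 the highest lumbar shares. Prph, the peripherin gene of peripheral neurons, had between 2883 and 21131 reads in a library, so the defining neurons of the labelled tissue were present. A geometric mean of 1 RPKM or more in any of the 4 groups was required for a test. This held for 14529 genes and for 7 of the 10 glial genes, while Sox2, Gfap and Pou3f1 fell below it and are described by their reads.

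Sacral DRG had less S100b than lumbar DRG of the same embryos, and less Fabp7 by a narrow call. S100b passed the threshold in 21 of 21 alternative analyses, whereas Fabp7 passed it in 8 of 21. S100b, a calcium-binding protein of Schwann cells and satellite glia that is also found in large sensory neurons of rodents, fell by 0.67 ± 0.11 on the log2 scale (SE, 10 donors), and Fabp7, the brain lipid-binding protein of Schwann cell precursors and immature glia, fell by 0.40 ± 0.11. Pou3f1 (Oct6), a transcription factor of promyelinating Schwann cells, had a mean difference of -2.37 ± 1.95 (SD, n = 10 donors), at 0 to 60 reads in a library. The remaining tested members, Sox10, Foxd3, Erbb3, Kcnj10 and Apoe, did not pass the threshold. No member that was tested passed it between the sexes.

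The promoters of the members that passed the threshold are shown because Sox10 and Sox2 belong to a family of factors that binds short A and T rich letters. The 250 bases before the start of each gene are from RefSeq on the GRCm38.p6 build, which differs from the mm9 build of the expression table. Letters ACAAAG or ACAAT, read on either strand, are in capitals. The stretch of Fabp7 lies at chr10:57784673-57784922 and that of S100b at chr10:76253586-76253835, both on the plus strand.
Fabp7: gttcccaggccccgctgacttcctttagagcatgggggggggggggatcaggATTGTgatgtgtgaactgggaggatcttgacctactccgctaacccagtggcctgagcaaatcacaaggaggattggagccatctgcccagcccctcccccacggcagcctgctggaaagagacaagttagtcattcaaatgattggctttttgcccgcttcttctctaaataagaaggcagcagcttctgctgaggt
S100b: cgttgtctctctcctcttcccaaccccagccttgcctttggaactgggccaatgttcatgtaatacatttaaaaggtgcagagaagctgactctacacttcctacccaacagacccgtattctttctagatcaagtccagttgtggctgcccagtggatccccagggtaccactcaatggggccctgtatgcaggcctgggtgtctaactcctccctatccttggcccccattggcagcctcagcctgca
The Fabp7 stretch held 1 match, ACAAT on the minus strand 198 bases before the start, and the S100b stretch held none. RefSeq entries were found for 7 of the 10 members, with 9 promoters because Apoe has several starts, and 3 of the 9 promoters held a match (Fabp7, Sox2 and 1 of Apoe). Of all 32851 mouse promoters of that length, 38.8% held one. A match is a run of letters and not a measured binding site.

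The levels of the members spanned a wide range. Over all 20 libraries the geometric mean was 158.1 RPKM for Fabp7, 49.9 for Apoe, 23.6 for S100b, 14.0 for Sox10, 5.93 for Erbb3, 5.76 for Kcnj10, 1.30 for Foxd3, 0.747 for Sox2, 0.0934 for Gfap and 0.0812 for Pou3f1. Most neighbours in this order kept it in nearly every library: Fabp7 was above Apoe in 20 of 20 libraries, Apoe above S100b in 20, S100b above Sox10 in 19 and Sox10 above Erbb3 in 20. Kcnj10 was above Foxd3 in 20 libraries, Foxd3 above Sox2 in 18 and Sox2 above Gfap in 19. Erbb3 and Kcnj10 did not differ beyond their spread, with Erbb3 the higher in 8 of 20 libraries, nor did Gfap and Pou3f1, with Gfap the higher in 10.

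**Figure D1:**
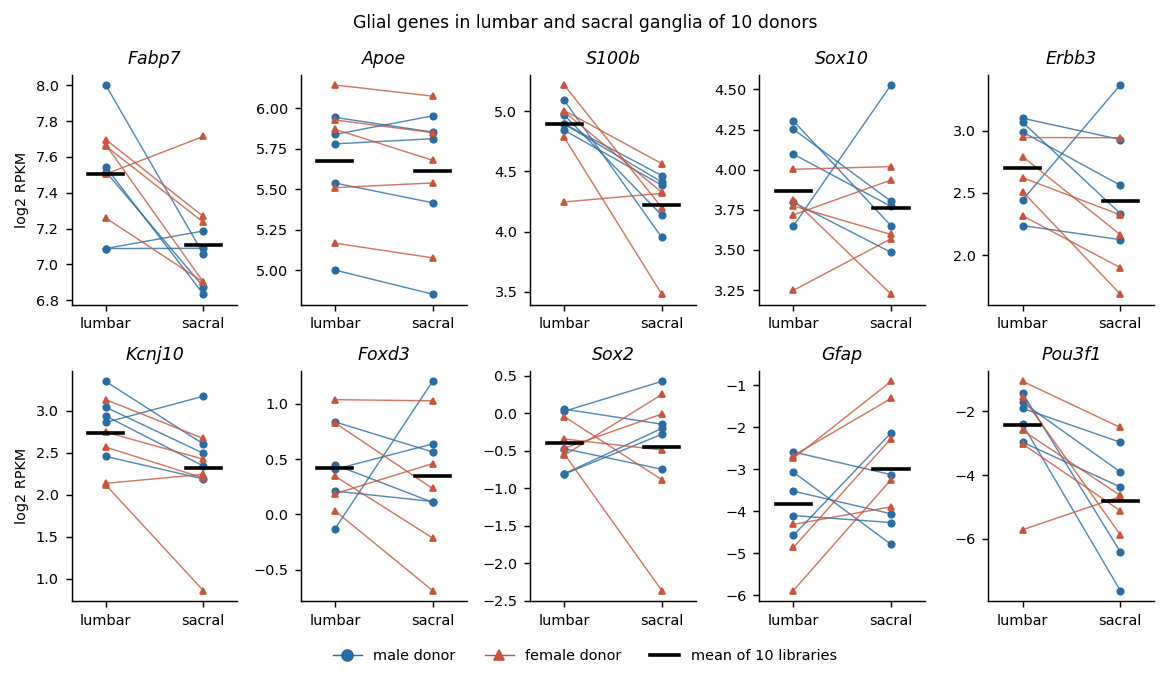
Level of each of the 10 glial genes in log2 RPKM (vertical axis, a separate scale for each gene) in the lumbar and the sacral library of each donor, joined by a line. Circles are male and triangles female donors, and black bars are means of 10 libraries; S100b fell in 9 of 10 donors, while the lines of Sox10, Foxd3 and Sox2 cross.

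To find which of these genes distinguish the spinal levels, sacral and lumbar libraries of the same donors were compared with limma, with the donor as a block and the sexes pooled. Of the 14529 genes tested, 978 (6.73%) passed an adjusted p of 0.05, 586 of them (4.03%) lower and 392 (2.7%) higher in sacral DRG. Of the 7 members tested, 2 passed, both lower in sacral DRG. The estimates of all 7 were below 0, with a median of -0.27, against a median of -0.05 and 8421 negative estimates among all genes tested. All 10 tested sensory neuron genes (median -0.36) and all 7 tested peripheral myelin genes (median -0.58) also had estimates below 0. So did all 7 tested skeletal muscle genes (median -0.57). Of 7 tested fibroblast genes 0 did, and of 7 other satellite glia genes 2.

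S100b (ENSMUSG00000033208, mm9 chr10:75716598-75723904, plus strand) had the clearest level difference among the members. In male donors M1, M3, M5, M7 and M8, in that order, S100b stood at 4.89, 4.89, 4.97, 5.09 and 4.84 log2 RPKM in lumbar and at 4.47, 4.41, 4.14, 3.95 and 4.39 in sacral DRG. In female donors F3, F7, F8, F9 and F10 the lumbar levels were 5.0, 4.78, 4.25, 5.01 and 5.22 log2 RPKM and the sacral levels 4.33, 3.48, 4.32, 4.56 and 4.20. The means were 4.89 ± 0.26 in lumbar and 4.22 ± 0.31 in sacral DRG (SD, n = 10), or 29.7 and 18.7 RPKM as geometric means. Every sacral library lay below the lumbar median, and 9 of the 10 lumbar libraries lay above every sacral library, the exception being the lumbar library of donor F8, the lowest of its group. The difference was -0.67 ± 0.11 (95% interval -0.91 to -0.43), or 1.59-fold lower in sacral DRG, with an adjusted p of 0.00188 in limma and the lower value in 9 of 10 donors. It was -0.67 ± 0.16 in males and -0.67 ± 0.16 in females, as contrasts within the same fit of all libraries (limma adjusted p = 0.0669 and 0.05004, neither within the threshold). The difference passed the threshold in 21 of 21 alternative analyses, with adjusted p-values from 7.12e-05 to 0.0211. The gene overlaps Dip2a on the opposite strand, and whether reads were counted by strand is not stated. Dip2a itself differed by 0.01 ± 0.07 between the levels (limma adjusted p = 0.944).

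Fabp7 (ENSMUSG00000019874, mm9 chr10:57504687-57508256, plus strand) was the most abundant member, with 3302 to 10750 reads in a library. The lumbar levels of Fabp7 were 7.52, 7.09, 8.0, 7.54 and 7.09 log2 RPKM in the male donors and 7.26, 7.67, 7.70, 7.50 and 7.66 in the female donors, listed in the donor order used above. The matching sacral levels were 6.88, 7.19, 7.06, 6.83 and 7.09 in males and 6.90, 6.90, 7.27, 7.71 and 7.24 in females. The means were 7.50 ± 0.29 in lumbar and 7.11 ± 0.27 in sacral DRG (SD, n = 10), or 181 and 138 RPKM as geometric means. The levels overlapped: 5 of 10 sacral libraries lay below every lumbar library, whereas the sacral library of donor F9 was among the highest of all. The difference was -0.40 ± 0.11 (95% interval -0.63 to -0.16), or 1.32-fold lower in sacral DRG, with an adjusted p of 0.0383 in limma and the lower value in 7 of 10 donors. This call was narrow. It held in 8 of 21 alternative analyses, and the adjusted p rose to 0.0679 with donor as a fixed term and to 0.151 without the donor block, with the same estimate in both. After quantile normalization the difference was -0.23 ± 0.13 (adjusted p = 0.300). The adjusted p was between 0.0712 and 0.113 without donor M1, M5, M7, F3, F7 or F10. Across the 20 libraries, after removal of the group means, Fabp7 rose with the mitochondrial rRNA share (r = 0.63), and with that share as a covariate the difference was -0.41 ± 0.09 (adjusted p = 0.0134).

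Of the factors that set the lineage, Sox10 and Foxd3, a neural crest factor that is kept in early glia, did not pass the threshold. The lumbar levels of Sox10 were 4.25, 4.10, 3.80, 3.65 and 4.30 log2 RPKM in the male donors and 4.0, 3.81, 3.72, 3.25 and 3.77 in the female donors, listed in the donor order used above. The matching sacral levels were 3.80, 3.77, 3.48, 4.53 and 3.65 in males and 4.02, 3.22, 3.94, 3.57 and 3.60 in females. Both levels covered nearly the same range, from 3.25 to 4.30 in lumbar and from 3.22 to 4.53 in sacral DRG, with the highest value in the sacral library of donor M7. The difference of Sox10 was -0.11 ± 0.12 (95% interval -0.37 to 0.15, limma adjusted p = 0.618), with 6 of 10 donors lower. A drop as large as that of S100b therefore lay outside the interval for Sox10. Foxd3 was much lower in level, at 34 to 188 reads in a library, and differed by -0.08 ± 0.18 (95% interval -0.45 to 0.30, limma adjusted p = 0.825), with 7 of 10 donors lower. Its mean difference was 0.17 ± 0.25 in males and -0.32 ± 0.25 in females, and the difference between the sexes did not pass the threshold (limma interaction, -0.49 ± 0.36, adjusted p = 0.995).

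Erbb3, the neuregulin receptor subunit that Schwann cell precursors depend on, showed a spread like that of Sox10. The lumbar levels of Erbb3 were 3.10, 2.99, 2.24, 2.44 and 3.07 log2 RPKM in the male donors and 2.94, 2.51, 2.79, 2.32 and 2.62 in the female donors, listed in the donor order used above. The matching sacral levels were 2.93, 2.56, 2.12, 3.37 and 2.33 in males and 2.94, 1.69, 2.16, 1.90 and 2.32 in females. The sacral value was below the lumbar value in 9 of 10 donors, by very little in donor F3, and donor M7 went the other way by 0.92. The difference was -0.27 ± 0.14 (95% interval -0.57 to 0.03, limma adjusted p = 0.258). The estimate was -0.43 ± 0.20 in females, lower in 5 of 5 donors, and -0.10 ± 0.20 in males, lower in 4 of 5, and neither passed the threshold (limma adjusted p = 0.276 and 0.896).

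Kcnj10 (Kir4.1), the potassium channel of satellite glia, was lower in sacral DRG in 8 of 10 donors without passing the threshold. The lumbar levels of Kcnj10 were 3.35, 3.04, 2.46, 2.86 and 2.94 log2 RPKM in the male donors and 3.13, 2.12, 2.13, 2.57 and 2.74 in the female donors, listed in the donor order used above. The matching sacral levels were 2.60, 2.49, 2.19, 3.17 and 2.34 in males and 2.67, 0.86, 2.24, 2.20 and 2.42 in females. The sacral library of donor F7 stood apart at 0.86, and the lumbar library of the same donor was the lowest of all lumbar libraries. The difference was -0.42 ± 0.16 (95% interval -0.74 to -0.09, limma adjusted p = 0.113), and it passed in 1 of 21 alternative analyses, the fit with library weights (-0.45 ± 0.11, adjusted p = 0.0109). Without donor F7 it was -0.32 ± 0.13 (adjusted p = 0.184).

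Apoe, the lipid carrier that glia secrete, varied least within an embryo. Its lumbar levels ran from 5.0 to 6.14 log2 RPKM with a median of 5.81, and its sacral levels from 4.85 to 6.07 with a median of 5.74. The difference was -0.06 ± 0.12 (95% interval -0.32 to 0.19, limma adjusted p = 0.785), with 7 of 10 donors lower and single donors between -0.19 and 0.11. Libraries differed far more between embryos than between levels, and the Apoe level followed the mitochondrial rRNA share downwards (r = -0.86 over 20 libraries, group means removed). After quantile normalization the estimate turned to 0.09 ± 0.08.

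**Figure D2:**
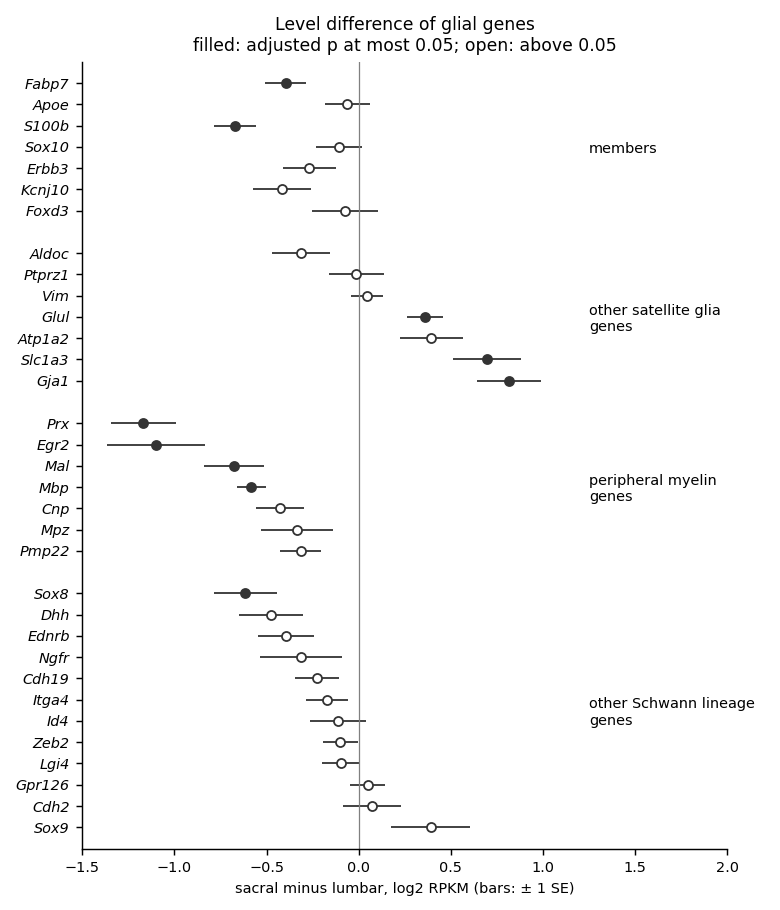
Sacral minus lumbar difference in log2 RPKM (horizontal axis) with 1 SE from limma for the 7 tested members and for the tested genes of 3 related lists. Filled points have an adjusted p of at most 0.05: S100b and Fabp7 among the members, 3 satellite glia genes to the right of 0, 4 myelin genes and Sox8 to its left.

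Pou3f1 was measured at very low counts but fell in nearly every donor. The lumbar libraries of the male donors held 23, 17, 15, 11 and 38 Pou3f1 reads, and their sacral libraries 12, 0, 4, 4 and 1. In the female donors the lumbar libraries held 34, 9, 60, 2 and 14 reads and the sacral libraries 2, 2, 14, 3 and 3. The sums over 10 libraries were 223 reads in lumbar and 45 in sacral DRG. Each sacral library lay below the lumbar median, and donor F9, with 2 lumbar and 3 sacral reads, was the 1 donor without a drop. The mean difference over donors was -2.37 ± 1.95 (SD, n = 10; two-sided p = 0.00391 by an exact permutation test that flips the signs of donors, where the smallest possible p is 0.00195). The sacral library of donor M3 held 0 reads, which allows up to 3 reads by counting error alone, and its blank was set to 0.5 reads. The size of the difference therefore depends on the scale, and on log2(RPKM + 1) it was -0.22. In a limma fit of all 29049 genes with a value, with no filter, the adjusted p was 0.0334. GENCODE M1 gives the symbol Pou3f1 to an overlapping pair of identifiers. The reads are those of ENSMUSG00000090125 (mm9 chr4:124334889-124337899, plus strand), which GENCODE M1 calls a pseudogene. The protein-coding ENSMUSG00000078236 covers almost the same bases, and its values ran parallel, lower by 0.35 ± 0.017 (SD, 19 libraries). Reads of these identifiers cannot be told apart.

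Gfap, the intermediate filament of astrocytes and of some satellite and non-myelinating Schwann cells, was near the limit of detection. The lumbar libraries of the male donors held 20, 15, 6, 7 and 6 Gfap reads, and their sacral libraries 15, 5, 5, 6 and 27. In the female donors the lumbar libraries held 7, 16, 6, 22 and 2 reads and the sacral libraries 11, 39, 23, 57 and 11. Both levels overlapped throughout, and the highest count was in the sacral library of donor F9. The mean difference was 0.83 ± 1.55 (SD, n = 10; same exact permutation test, p = 0.127), with 6 of 10 donors higher. It was 1.77 ± 0.93 in females, higher in 5 of 5 donors, and -0.10 ± 1.54 in males, lower in 4 of 5, and an exact permutation test of females against males gave p = 0.0635 (two-sided, 5 against 5 donors, smallest possible 0.00794). Gfap overlaps the lincRNA Gm17536 on the opposite strand, which had 20 to 98 reads in a library.

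Sox2, a factor of immature glia that holds back myelination, had 11 to 93 reads in a library. Lumbar levels ran from -0.81 to 0.05 log2 RPKM and sacral levels from -2.37, in donor F7, to 0.42, in donor M8. The mean difference was -0.05 ± 0.80 (SD, n = 10; same exact permutation test, p = 0.865), with 5 of 10 donors lower, and its sign turned to 0.15 without donor F7. Sox2 lies inside the long transcript Sox2ot on the same strand, whose own difference was -0.50 ± 0.16 (limma adjusted p = 0.0675), so reads of both genes may be mixed.

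**Figure D3:**
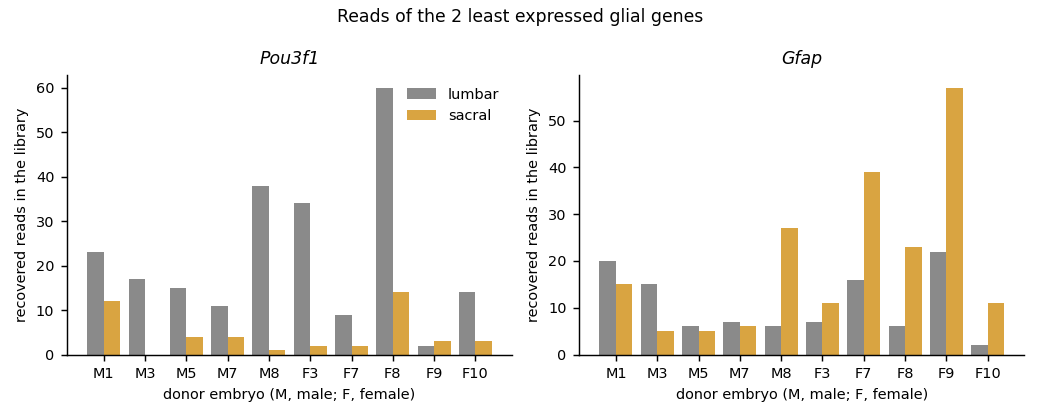
Recovered reads (vertical axis, from 0) of Pou3f1 and Gfap in the lumbar (grey) and sacral (yellow) library of each donor, males first. Pou3f1 had the taller lumbar bar in every donor but F9, and Gfap the taller sacral bar in all 5 female donors.

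The members did not move as a single unit across embryos. Donor M7 had more Sox10, Erbb3 and Foxd3 in sacral than in lumbar DRG, by 0.88, 0.92 and 1.33 on the log2 scale, and at the same time less S100b and Fabp7, with differences of -1.14 and -0.71. Over the differences of the 10 donors, the 10 pairs among Sox10, Foxd3, Erbb3, Kcnj10 and Apoe, a grouping made after the values were seen, had correlations from 0.45 to 0.92. The 10 pairs of these genes with S100b or Fabp7 had correlations from -0.43 to 0.24. Over the 20 libraries with group means removed the corresponding ranges were 0.47 to 0.87 and -0.54 to 0.53. The values of a library share its depth and its mitochondrial rRNA share, with which Apoe (r = -0.86), Erbb3 (-0.64), Kcnj10 (-0.64) and Foxd3 (-0.57) moved down and Fabp7 (0.63) moved up. The genes whose level followed that of Sox10 most closely over the 20 libraries, among all genes tested, were Lamb1, a laminin chain (r = 0.92), Gfer (0.89), Lama2, another laminin chain (0.89), Dst (0.87) and Arhgap32 (0.87). Over the 10 donor differences they were Gm16750 (r = 0.94), Dst (0.93), Gfer (0.93), Gm16564 (0.93) and Map3k13 (0.93). Sox10 and Erbb3 had an r of 0.87 over the libraries.

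**Figure D4:**
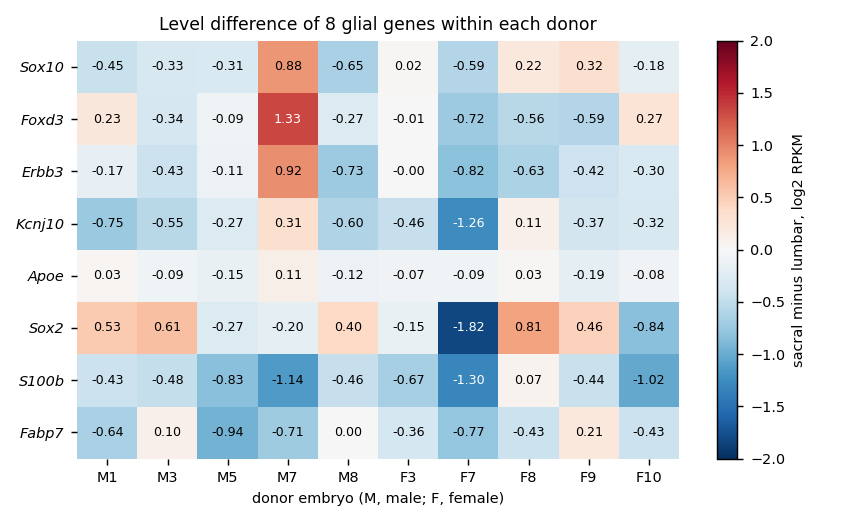
Sacral minus lumbar difference in log2 RPKM of 8 members (rows) in each donor (columns), printed in each cell and coloured red where sacral and blue where lumbar DRG was higher. Donor M7 is red for Sox10, Foxd3, Erbb3 and Kcnj10 and blue for S100b and Fabp7, and the row of Apoe is pale throughout.

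The sexes were compared within each level to ask whether the glial genes differ between male and female ganglia before birth. In limma, 0 of 7 tested members passed in lumbar DRG, where 0.33% of all genes did, and 0 of 7 in sacral DRG, where 1.01% did. At an unadjusted p under 0.05 the count of members was also 0 in both. The smallest unadjusted p was 0.168 in lumbar DRG, for Sox10 (female minus male, -0.31 ± 0.22), and 0.0813 in sacral DRG, for Erbb3 (-0.46 ± 0.25, 95% interval -0.98 to 0.06). For the change of the level difference with sex, 0 of 7 members passed and 0 had an unadjusted p under 0.05, and 0% of all genes passed. A difference of 0.67 in size, that of S100b between levels, lay within the 95% intervals of Sox10, Foxd3 and Kcnj10 in lumbar DRG and of Foxd3, Erbb3 and Kcnj10 in sacral DRG.

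Related gene lists, chosen by function but with earlier results of these data known, place the members among other glial genes. Their counts are a description and not an independent test. The background for each list is the 6.73% of all genes that passed in either direction. Of 7 tested peripheral myelin genes, 4 were lower and 0 higher in sacral DRG, with a median difference of -0.58. They included Mbp, myelin basic protein (-0.58 ± 0.08, limma adjusted p = 0.000196), and Prx, periaxin of myelinating Schwann cells (-1.17 ± 0.17, adjusted p = 0.000516). Egr2, the myelination factor that follows Pou3f1, fell by 1.10 ± 0.27 (adjusted p = 0.0185), and Mal, a myelin membrane protein, by 0.68 ± 0.16 (limma adjusted p = 0.0163). Prx reached 1 RPKM in lumbar but not in sacral DRG. Egr2 had a lumbar mean of -0.08 log2 RPKM and reached 1 RPKM in lumbar males only. Both calls thus rest on genes that entered the test through the level where they are high. With no filter, 4 of the 10 myelin genes passed, Prx (adjusted p = 0.00153) and Egr2 (adjusted p = 0.0306) among them. The count of myelin genes was 3 of 6 tested without donors M5 and F7, 2 of 7 without the donor block and 6 of 7 with donor as a fixed term, with library weights or with the mitochondrial rRNA share as a covariate. Of 12 tested genes of the Schwann lineage outside the members, 1 passed, Sox8, of the same subfamily as Sox10 (-0.62 ± 0.17, limma adjusted p = 0.0337). Its call was lost without donors M5 and F7 (adjusted p = 0.201). A single call among 12 genes is not far above the background share.

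Among other genes of satellite glia, those that passed were higher in sacral DRG. Of 7 tested, 3 were higher and 0 lower, with a median difference of 0.36: Gja1, the gap junction protein connexin 43 (0.81 ± 0.17, limma adjusted p = 0.00821), Slc1a3, a glutamate transporter (0.69 ± 0.18, adjusted p = 0.0295), and Glul, glutamine synthetase (0.36 ± 0.10, adjusted p = 0.0289). Of the 7, 2 had estimates below 0 and did not pass, Aldoc (-0.31 ± 0.16, lower in 9 of 10 donors) and Ptprz1 (-0.01 ± 0.15). The levels of Gja1, Slc1a3 and Glul went up while those of S100b and Fabp7 went down. Their counts depended on single embryos: 1 of the 7 passed without donor M3, M5, F3 or F10, and 0 passed without M5 and F7 together or without the donor block, while the median stayed between 0.20 and 0.48 in all alternatives.

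In the neuregulin and ErbB list, 1 of 8 tested genes was higher in sacral DRG, Egfr (0.63 ± 0.16, limma adjusted p = 0.0225), and 0 were lower. Nrg1, the neuregulin that signals through Erbb3, had an estimate of -0.52 ± 0.16 just short of the threshold (limma adjusted p = 0.0507), and Erbb2, the partner of Erbb3 in the receptor, one of 0.18 ± 0.13 (adjusted p = 0.402). In the Notch list, whose signal favours glial fate, 1 of 11 tested genes was higher, the receptor Notch2 (0.66 ± 0.14, limma adjusted p = 0.00931), and 0 were lower. Among 9 tested genes of Apoe receptors and lipid transport, 1 was higher, Lrp1, an Apoe receptor (0.61 ± 0.11, limma adjusted p = 0.00319), and 0 were lower. A single call in lists of 8, 11 and 9 genes is not far above the background of 6.73%. Of 21 alternative analyses each, Egfr passed in 15, Notch2 in 19 and Lrp1 in 21. Egr2, Mal, Slc1a3, Nrg1, Erbb2, Id4 and Cdh19 are named here after their values were seen. Between the sexes, Id4 of the Schwann lineage list was lower in females in lumbar (-1.40 ± 0.26, limma adjusted p = 0.0158) and in sacral DRG (-1.63 ± 0.26, adjusted p = 0.00276). Cdh19 was lower in females in sacral DRG (-0.87 ± 0.21, limma adjusted p = 0.0477). The sample labels number male and female libraries apart, and litter is not given. A part of either in the differences between the sexes was not tested.

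The sums of several other cell markers also moved between the levels in most donors. The summed RPKM of the 10 members was 250 to 346 in lumbar and 180 to 308 in sacral libraries and was lower in sacral DRG in 9 of 10 donors. Such a sum weighs abundant genes most, here Fabp7 (geometric mean 158.1 RPKM). Of the tested members, S100b and Fabp7 passed, and the estimates of Sox10 (-0.11), Foxd3 (-0.08) and Apoe (-0.06) were near 0. The sum of 10 sensory neuron genes was also lower in 9 donors, and that of 6 genes of large myelinated neurons, Pvalb and Nefh among them, in 10 of 10 donors (88.2 to 171 in lumbar, 70.6 to 107 in sacral DRG). Single genes were uneven in size: 1 of 10 sensory neuron genes and 3 of 6 large myelinated neuron genes passed, all lower. The estimates of all 10 sensory neuron genes were below 0. Spp1 of the large myelinated list had an estimate of 0.70 ± 0.35 (limma adjusted p = 0.227). Pou4f1 and Elavl3 of the sensory neuron list were lower in 5 of 10 donors. The sum of 7 fibroblast genes was higher in sacral DRG in 9 of 10 donors (191 to 440 in lumbar, 266 to 593 in sacral DRG). Of the 7 fibroblast genes tested, 4 passed, all higher, with a median difference of 0.51. The sums of 7 endothelial and of 10 macrophage genes were also higher in sacral DRG in 9 of 10 donors. The latter lists were uneven, with median differences of 0.01 and 0.05 over their tested genes, 2 of 5 tested endothelial and 1 of 7 tested macrophage genes higher, and estimates below 0 for Pecam1 (-0.11), Kdr (-0.04), Cx3cr1 (-0.22) and Csf1r (-0.02). In the list of 7 spinal cord glia genes, Nkx2-2 was at 0 reads in 19 of 20 libraries and Olig2 in 11, whereas Aqp4 had 104 to 463, Slc1a2 204 to 856 and Pax6 254 to 1101 reads. Their summed RPKM was 3.54 to 7.02 in lumbar and 3.5 to 6.88 in sacral DRG, and Aqp4 was lower in sacral DRG (-0.73 ± 0.18, limma adjusted p = 0.0224). Of 5 melanocyte genes, Mlana was at 0 in 17 libraries and Tyr in 14, whereas Tyrp1 had 125 to 1398 reads, and their summed RPKM was 5.08 to 15.1 in lumbar and 2.43 to 10.2 in sacral DRG. The part of these lists in the differences of S100b, Fabp7 and Pou3f1, and in those of Gja1, Slc1a3 and Glul, was not tested. The mitochondrial rRNA share of a donor's sacral library exceeded that of its lumbar library by 0.652 ± 9.45 percentage points (SD, n = 10) and was the higher in 3 of 10 donors.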

How the data were processed

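The authors extracted total RNA from whole ganglia, amplified it as cDNA and sequenced transposase-tagged libraries on an Illumina instrument. The authors aligned reads to mm9 with Subread, counted genes with featureCounts, and applied edgeR scaling and limma's voom. The deposited values are log2 RPKM per gene and library; strand use in counting is not stated in the sources used here. With exon lengths of GENCODE M1 (also mm9), 98.28% of values lay within 0.05 of a whole read, from which reads were recovered. A blank was read as 0 reads and set to 0.5. The depths cover counting error only, since amplified reads are not independent molecules.

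Groups, sexes and donors came from the sample labels. The limma package (version 3.58.1, R 4.3.3) was fitted to the 14529 genes with a geometric mean of at least 1 RPKM in a group, with 4 group means, donor as a block through duplicateCorrelation (correlation 0.342), and a variance trend. Tests were two-sided, with Benjamini-Hochberg adjustment over every gene in the fit and 0.05 as threshold. The libraries of a donor come from the same embryo, which pairs them. Members below that level were tested by an exact permutation test that flips the sign of each donor's difference. The fit was checked on simulated data with noise drawn independently for each gene. The check therefore did not cover variation that the genes of a library share. Members and gene lists were chosen with earlier results of these data known. All members are named; per list, the genes with the 2 smallest adjusted p per direction, and other names were chosen after values were seen. Genes like Sox10 were ranked by correlation. Promoters are RefSeq sequences on GRCm38.p6. A gene of the myelin list is not reported here.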

Additional observations from a re-analysis of the deposited data

Results flagged for a closer look

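Kcnj10 in sacral DRG of donor F7, a female, stood at 0.86 log2 RPKM, against 2.20 to 2.67 in the other 4 sacral female libraries. Its distance to the nearest of them, as a part of the range of the group, was above the 95% critical value of Dixon's test for 5 samples. It was the 1 such value among 40 groups of 5 libraries (10 genes in 4 groups), and chance alone flags about 1 in 20 groups. The same library had the lowest sacral levels of Sox10, Foxd3, Erbb3, Sox2 and S100b and a mitochondrial rRNA share of 45.2%. The cause was not tested.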

How the results depend on the processing

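Of the 7 members tested, 2 passed between levels. The count was 1 with donor as a fixed term (paired replicate block as a factor), without the block, after median centring, after quantile normalization and without donors M5 and F7, an alternative chosen after seeing the data, and 1 to 2 without single donors. S100b passed in each of these fits, and Fabp7 and Kcnj10 are given with their values in the report. With library weights the count was 2, but Kcnj10 passed in place of Fabp7 (limma adjusted p = 0.05008 for Fabp7). With no filter it was also 2, but Pou3f1 passed in place of Fabp7 (limma adjusted p = 0.0838 for Fabp7). The counts between sexes and for the interaction were 0 in each alternative run. Genes of the whole table that passed between levels numbered 154 without the block, 2998 with library weights, 507 without the filter, 265 without M5 and F7, and 406 to 1608 without single donors, against 978. Estimates near 0 changed sign: Foxd3 to 0.0077 without M5 and F7, Apoe to 0.086 after quantile normalization, and Sox2 to 0.0152 on log2(RPKM + 1), and 0.20 without M5 and F7, with a range of -0.14 to 0.15 without single donors (above 0 without F7 or F10). The cause was not tested. Pou3f1 passed in 13 of 13 alternatives (exact permutation p from 0.00391 to 0.0156). Depth limits Pou3f1, Gfap and Sox2, whose libraries held as few as 0, 2 and 11 reads.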
